A study of Mus musculus with 16 samples.

Results

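The genes described here are 38 cell cycle and replication genes, taken by name from a fixed list, out of the 21887 protein-coding genes that RefSeq places on mouse build GRCm38. They comprise 23 genes of G1/S and replication (9 G1 cyclins and kinases with their phosphatase Cdc25a, 4 genes of the E2F and RB axis, and 10 replication licensing and fork genes) and 15 mitotic genes (9 cyclins, kinases and phosphatases, 4 genes of the spindle checkpoint and its APC/C target, and Top2a and Mki67). The study profiled chromatin by ChIP-seq, which sequences the DNA bound to an immunoprecipitated protein or histone mark, in neural stem cells grown as neurospheres from the telencephalic cortex of mouse embryos at E14.5. The groups were Setd5+/- cells, heterozygous for Setd5 by their label, WT cells, and WT-S5V5 cells for the V5-tagged SETD5 protein. Formaldehyde fixation followed growth to near confluence on Matrigel. The labels used here do not give how many embryos or lines stand behind a library, and every mark had 1 library per genotype, so the genotype differences below are differences between libraries and carry no test.

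Progress from G1 into S phase depends on cyclin D and cyclin E kinases, which phosphorylate RB and release the E2F transcription factors that drive replication genes. Licensing loads the MCM helicase at origins through ORC, CDC6 and CDT1. Entry into and exit from mitosis are set by cyclin B with CDK1, the Aurora and Polo kinases, and the APC/C held in check by the spindle checkpoint. Promoters of active genes usually carry H3K4me3 and H3K27ac, H3K4me1 lies at enhancers and flanks promoters, H3K27me3 is the Polycomb mark of silenced genes, and H3K36me3 is laid over transcribed gene bodies. Cortical neural stem cells divide rapidly at this embryonic stage, and the length of their G1 phase is a known feature of the choice between self-renewal and differentiation.

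The promoters of these genes are known for a few short motifs, and 6 windows are printed as examples. Their genes had start marks or gene-body marks that differed between genotypes, or encode the main mitotic kinase. Other members that differed have windows that are not printed. Of these, E2f1, Ccne1, Cdk4, Cdk6 and Mad2l1 held none of the motifs described below and the rest held some, whereas all 6 printed windows held some. Each printed sequence is the RefSeq window of GRCm38.p6 from 250 bases before to 50 bases after the start, read 5′ to 3′ on the gene's strand. Letters were searched on both strands, and the capitals mark them. An E2F core was accepted with the letters TTCCCGC, and also where the window held TTGGCGC on either strand. Its other accepted forms were TTCGCGC and, as the last of them, TTGCCGC on either strand. The box was searched with its own letters CCAAT, and the cell cycle genes homology region (CHR) as TTTGAA and as TTCGAA. Other forms of the CHR were not searched. E2F cores can overlap each other or a CCAAT box, as in Mcm6 and Ccnb1. The windows are those of Cdk2 (chr10:128705002-128705301, minus strand), Cdc6 (chr11:98907901-98908200, plus strand), Mcm6 (chr1:128359656-128359955, minus strand), Ccnb1 (chr13:100786437-100786736, minus strand), Ccnb2 (chr9:70421505-70421804, minus strand) and Cdk1 (chr10:69352863-69353162, minus strand).
Cdk2: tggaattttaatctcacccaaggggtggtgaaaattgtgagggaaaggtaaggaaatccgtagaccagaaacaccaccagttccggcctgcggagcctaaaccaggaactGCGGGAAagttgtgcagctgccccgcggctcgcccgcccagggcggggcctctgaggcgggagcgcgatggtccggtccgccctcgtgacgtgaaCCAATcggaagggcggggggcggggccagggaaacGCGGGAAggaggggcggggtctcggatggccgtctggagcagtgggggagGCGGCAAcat
Cdc6: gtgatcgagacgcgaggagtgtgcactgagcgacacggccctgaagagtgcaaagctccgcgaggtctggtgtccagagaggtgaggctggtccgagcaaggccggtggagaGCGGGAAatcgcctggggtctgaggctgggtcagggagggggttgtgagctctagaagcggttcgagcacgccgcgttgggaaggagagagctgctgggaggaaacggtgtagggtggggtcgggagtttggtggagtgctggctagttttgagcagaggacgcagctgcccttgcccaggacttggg
Mcm6: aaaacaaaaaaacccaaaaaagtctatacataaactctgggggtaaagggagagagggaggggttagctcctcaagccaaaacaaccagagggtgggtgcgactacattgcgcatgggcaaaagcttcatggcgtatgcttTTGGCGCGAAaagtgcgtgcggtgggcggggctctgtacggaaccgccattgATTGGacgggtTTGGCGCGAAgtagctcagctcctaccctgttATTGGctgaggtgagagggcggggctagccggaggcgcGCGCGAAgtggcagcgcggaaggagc
Ccnb1: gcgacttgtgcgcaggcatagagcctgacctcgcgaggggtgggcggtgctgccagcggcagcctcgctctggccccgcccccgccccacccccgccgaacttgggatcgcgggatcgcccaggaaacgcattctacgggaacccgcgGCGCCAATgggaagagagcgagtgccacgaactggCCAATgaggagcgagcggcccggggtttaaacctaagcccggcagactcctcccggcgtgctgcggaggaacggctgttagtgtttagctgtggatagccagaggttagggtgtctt
Ccnb2: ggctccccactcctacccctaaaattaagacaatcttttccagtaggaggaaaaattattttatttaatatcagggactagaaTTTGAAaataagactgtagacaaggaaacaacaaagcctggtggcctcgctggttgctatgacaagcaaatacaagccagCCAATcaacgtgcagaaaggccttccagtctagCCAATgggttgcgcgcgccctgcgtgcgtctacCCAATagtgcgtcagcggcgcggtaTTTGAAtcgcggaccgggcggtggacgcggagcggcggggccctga
Cdk1: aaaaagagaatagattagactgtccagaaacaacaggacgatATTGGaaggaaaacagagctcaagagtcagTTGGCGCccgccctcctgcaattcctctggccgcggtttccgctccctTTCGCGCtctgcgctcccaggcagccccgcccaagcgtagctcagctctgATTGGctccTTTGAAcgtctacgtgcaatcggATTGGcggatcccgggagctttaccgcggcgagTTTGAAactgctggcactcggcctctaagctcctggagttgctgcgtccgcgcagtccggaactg

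Motif content differed between the phases. Of the 30 members with a window, the CHR letters were in 4 of 18 G1/S and replication genes (22.2%) and 10 of 12 mitotic genes (83.3%), against 20.2% of the 17492 protein-coding genes with a window. The E2F core was in 11 of 18 G1/S and replication genes (61.1%) and 3 of 12 mitotic genes, against 13.7% of all windows, and the CCAAT box was in 12 of 18 and 11 of 12, against 42.3%. A CHR together with a CCAAT box, the pair known from promoters of late cell cycle genes, was in 4 of 18 G1/S and replication genes and 10 of 12 mitotic genes, against 9.24% of all windows. The mitotic genes with a window but neither of the searched CHR forms in it were Ccnb1 and Mad2l1. A gene with several windows counted once, and a match is a description of letters and not of binding.

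The depth of the lists is the number of reads inside islands, the enriched regions the authors called, and it lay between 1019278 (H3K27ac) and 5093126 (H3K4me3), both in Setd5+/- cells. For H3K36me3 it was 3561439 in Setd5+/- and 2468530 in WT cells, for H3K4me1 1110651 in Setd5+/- and 1988772 in WT cells, and for SETD5-V5 2464878. Markers of neural stem cells and radial glia had H3K4me3 at the start of 10 of 12 genes in each genotype, neuron markers 4 of 7 in each, astrocyte markers 0 of 3 in Setd5+/- and 1 of 3 in WT cells, oligodendrocyte markers 3 of 5 in each, endothelial and mesenchymal markers 2 of 5 in each, and microglia and blood markers 0 of 5 in each. H3K36me3 touched 6 of 12 stem cell markers in each genotype. H3K36me2 coverage of chromosomes 1, 4 and 15 was greater in the Setd5+/- library, most on chromosome 1 (63.1 Mb in Setd5+/- and 6.96 Mb in WT cells). Mcm3 and Mcm6 lie on chromosome 1 and Ccne2, E2f2, Orc1 and Cdc20 on chromosome 4, and no member lies on chromosome 15.

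With 5 kb on each side, the 38 spans add up to 1420.59 kb. H3K36me3 islands covered 43.0% of this in Setd5+/- and 47.7% in WT cells, H3K4me3 11.2% in Setd5+/- and 11.0% in WT cells, and H3K27ac 9.24% in Setd5+/- and 7.69% in WT cells. H3K4me1 covered 5.54% in Setd5+/- and 8.87% in WT cells. H3K27me3 and H3K36me2 were nearly absent, at 0.605% and 1.33% in Setd5+/- and 1.06% and 1.07% in WT cells. SETD5-V5 covered 26.2%.

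H3K4me3 lay within 1 kb of a start of all 38 members in both genotypes, against 57.9% of all protein-coding genes. A member with several starts counted when any of them was marked. At its second start E2f2 had H3K4me3 (1.6 kb, 140 reads) and H3K27ac (1.6 kb, 38 reads) in WT only. For 8 members RefSeq gave no window, and either annotated end served as the start; these were Aurkb, Ccna2, Ccnd1, Ccnd2, Ccne2, Cdc25c, Mcm4 and Rb1. The islands at the starts had a median width of 3 kb in each genotype and held between 205 and 1149 reads in Setd5+/- and between 174 and 1163 in WT cells. The D-type cyclins Ccnd1 and Ccnd2, which partner CDK4 and CDK6 in G1, had the widest, and Mcm2, a subunit of the MCM helicase, the fewest reads. The Ccnd1 islands measured 9.2 kb with 1047 reads in Setd5+/- and 9.4 kb with 1140 reads in WT cells. Ccnd2 had 8.8 kb with 1149 reads in Setd5+/- and 9.0 kb with 1163 reads in WT cells. Cdk1, the kinase that drives mitotic entry, had 2.6 kb with 480 reads in Setd5+/- and 3.0 kb with 450 reads in WT cells.

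The read density of H3K4me3 was taken over all islands that touched the span of a member. It is given as the log2 ratio of Setd5+/- over WT reads per kb, each scaled to the reads in islands of its library, relative to the median gene of the 16 autosomes other than 1, 4 and 15. The median over members was 0.07, and 15 of 38 lay below 0, against 47.1% of all genes with islands in both genotypes. On this measure Mcm3, another MCM subunit, was the 1 member higher by at least 0.5, against 6.42% of all genes, at 0.58 (95% counting interval 0.37 to 0.79). Genes on its chromosome 1 had a median of 0.25. The lowest was Aurkb, the Aurora kinase of the chromosomal passenger complex, at −0.35 (−0.54 to −0.15). Its islands held similar reads, 439 in Setd5+/- and 435 in WT cells, but differed in width (3.0 kb in Setd5+/-, 2.4 kb in WT cells). No member was lower by 0.5, against 4.74% of all genes. The intervals, which cover counting error only, included 0 for 24 of 38 members.

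H3K27ac was at the start of 33 members in Setd5+/- and 32 in WT cells, against 35.9% and 37.9% of all genes, and at 31 in both, against 31.8%. Among genes with H3K4me3 at the start in both genotypes, the kind to which all members belong, the shares were 61.2% in Setd5+/- and 64.8% in WT cells. All 10 replication genes had it in Setd5+/- and 9 in WT cells, and all 4 spindle checkpoint and APC/C genes had it in both. At Mcm6 the mark was in the Setd5+/- list only, as an island of 2.8 kb with 67 reads that reached into the window printed above, with its several E2F cores. Ccnb2, a B-type cyclin, had it in Setd5+/- only too, as 2.6 kb with 47 reads. These are 2 members against 4.1% of all genes and 6.63% of those with H3K4me3. Ccne2, a cyclin partner of CDK2 at the G1/S boundary, had 2.0 kb with 45 reads in WT only, against 6.16% of all genes and 10.2% of those with H3K4me3. All 3 islands held few reads and lay at starts with H3K4me3 in both genotypes (for Ccnb2, 228 reads in Setd5+/- and 218 in WT cells). When an island had to lie over the start base itself, 15 members had H3K27ac in both genotypes in place of 31, 7 in Setd5+/- only and 5 in WT only. Without the islands of lowest density 5 had it in Setd5+/- only and 4 in WT only. Ccnd3, Ccne1, Rb1 and Ccna2 had no H3K27ac within 1 kb of a start in either list. Ccnd2, with either annotated end as its start, is counted in both genotypes, but its islands lay at opposite ends. The WT island (1.0 kb, 26 reads) was at the end with H3K4me3, and the Setd5+/- island (2.6 kb, 34 reads) at the other. By the end with H3K4me3 alone, Ccnd2 would count as WT only.

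H3K4me1 was at the start of 15 members in Setd5+/- and 29 in WT cells. The shares of all genes were 16.6% and 34.8%, and among genes with H3K4me3 at the start in both genotypes they were 26.7% and 57.4%. It was in WT only at 15 members, against 21.4% of all genes and 35.3% of those with H3K4me3. These were Ccnd1, Cdk2, Cdk4, Cdk6, Mcm2, Mcm3, Cdc6, Ccnb2, Cdk1, Cdc25b, Aurka, Aurkb, Bub1b, Mad2l1 and Top2a, which is 7 of 23 G1/S and replication genes and 8 of 15 mitotic genes. The islands were short, and over the start base itself the count was 5 in place of 15. Cdk1 had 2.8 kb with 65 reads, Top2a, the topoisomerase that untangles sister chromatids, 2.2 kb with 76 reads, and Ccnd1 4.0 kb with 98 reads. Aurka, the Aurora kinase of the spindle poles, had 2.8 kb with 83 reads, and the phosphatase gene Cdc25b had 1.2 kb with 39 reads. Mki67, which encodes the proliferation antigen Ki-67, had H3K4me1 in Setd5+/- only (2.2 kb, 41 reads), against 3.13% of all genes. The Setd5+/- H3K4me1 library held fewer reads in islands than the WT library, as given above, and the part of depth in this difference was not tested.

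H3K27me3 reached the neighbourhood of Cdk6 and Bub1 and of no other member. Cdk6, the G1 kinase with the longest span of the list (190 kb), had H3K27me3 within 1 kb of its start in WT only, where 7.94% of all genes had the mark, against 6.18% in Setd5+/-; 3.31% of genes had it in WT only. The 2 WT islands, of 19 kb with 1436 reads and 3.6 kb with 130 reads, flanked the start on each side at 0.293 and 0.708 kb. In Setd5+/- cells 1 island of 20.2 kb with 919 reads ended 1.29 kb from the start, so the call rests on about 1 kb. Its H3K4me3 islands at the start were 4.8 kb with 869 reads in Setd5+/- and 5.0 kb with 548 reads in WT cells, and the density ratio of these islands alone was 0.68. Over all H3K4me3 islands that touched the span (1082 reads in 8 kb in Setd5+/-, 695 reads in 6.4 kb in WT cells) it was 0.28 (0.14 to 0.42). H3K27ac islands over Cdk6 held 423 reads in Setd5+/- and 165 in WT cells. H3K36me3 covered 10.5% of Cdk6 in Setd5+/- and none in WT cells. At Bub1, a spindle checkpoint kinase, H3K27me3 islands beyond the start held 75 reads in Setd5+/- and 345 in WT cells, and none lay over the gene. The H3K27me3 lists as a whole held 1398086 reads in islands in Setd5+/- and 2297833 in WT cells. Scaled to these, the H3K27me3 density ratio over Cdk6 was 0.11. Relative to the median gene it was −0.34 (−0.46 to −0.22). The part of depth in the H3K27me3 differences was not tested.

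**Figure D1:**
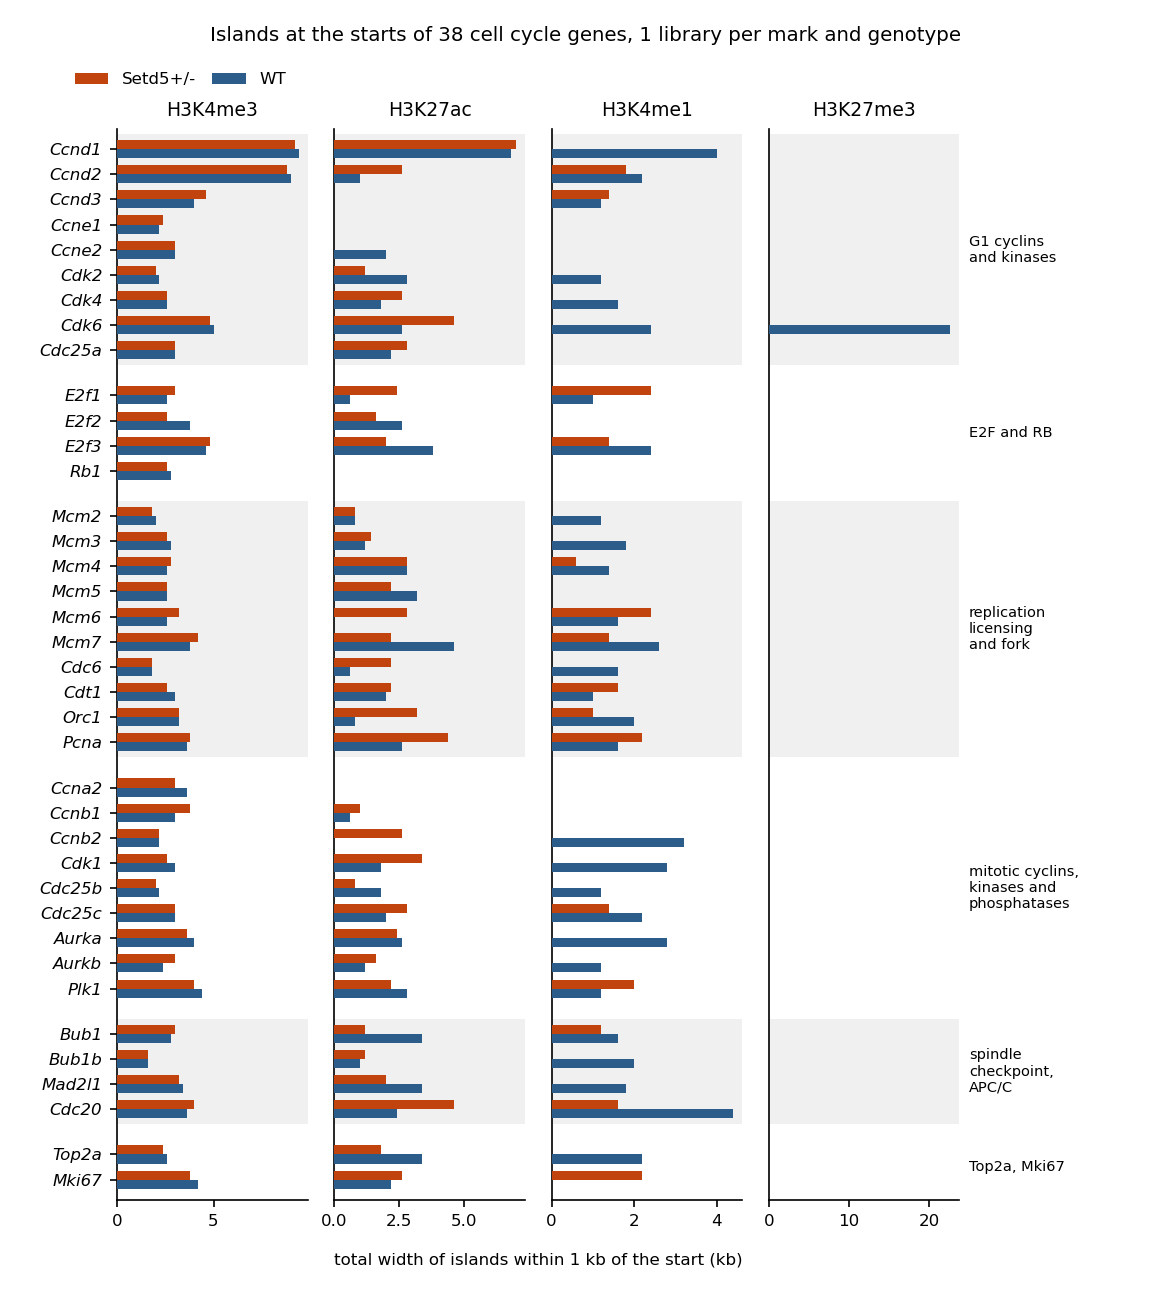
Total width in kb of the islands within 1 kb of the start of each of the 38 genes, by role, for 4 marks; orange bars are Setd5+/- and blue bars WT (1 library each). H3K4me3 is at a start of every gene in both genotypes. H3K4me1 is at 15 genes in Setd5+/- and 29 in WT, and H3K27me3 is at Cdk6 in WT.

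Over gene bodies, H3K36me3 was on most members in both genotypes. It covered at least 25% of the span of 33 members in Setd5+/- and 32 in WT cells, against 30.3% and 29.3% of all protein-coding genes. All 15 mitotic genes passed that level in both genotypes, and of the 23 G1/S and replication genes 18 did in Setd5+/- and 17 in WT cells. The median covered percent was 69.7 in Setd5+/- and 83.5 in WT cells for G1/S and replication genes, and 87.8 in Setd5+/- and 98.3 in WT cells for mitotic genes. With at least 25% in WT cells, the medians were 86.5 in Setd5+/- and 89.8 in WT cells over 32 members, and 71.8 in Setd5+/- and 76.3 in WT cells over 6412 genes. Cdt1, the licensing factor that geminin inhibits, had no H3K36me3 island in either genotype, and Ccnd3 was covered over 3.05% in Setd5+/- and 1.36% in WT cells.

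The covered percent was lower in Setd5+/- cells by at least 20 percentage points at 9 of 38 members, against 6.15% of all genes. Since such a loss needs coverage in WT cells, the nearer comparison is 9 of the 32 members covered over at least 20% in WT cells, against 20.2% of such genes. The 9 were 3 of 4 genes of the E2F and RB axis, 2 of 9 G1 genes, 1 of 10 replication genes, 2 of 9 mitotic cyclins, kinases and phosphatases, and 1 of 4 spindle checkpoint and APC/C genes. It was higher by at least 20 points at 3 members, against 6.18% of all genes, all of them G1/S and replication genes. These 3 are among 5 members with no H3K36me3 over the span in WT cells, and 4.67% of all such genes passed 20 points. The 9 became 5 when spans took in 5 kb flanks and 2 at a threshold of 50 points, and of the 3 higher members 1, E2f1, had islands that reached no other gene.

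Of the role groups, the E2F and RB genes differed most, with a median change of −34.8 points over 4 genes. This holds for the 4 listed genes only. Other E2F and RB family genes, in the list of other cell cycle genes described below, went both ways, from −37.7 to 28.6 points. E2f2, an activator E2F, had no island in Setd5+/- cells, against 40.4% of the span in WT cells (9.6 kb, 108 reads). Rb1, the retinoblastoma repressor of E2F, had none in Setd5+/- cells, against 35.5% in WT cells in 3 islands of 16.8, 6.4 and 24.0 kb with 162, 73 and 219 reads. E2f3 had 44.1% in Setd5+/- cells in 3 islands, and 78.3% in WT cells in 2 islands. E2f1, the founding activator, went the other way, with 53.4% in Setd5+/- cells (5.6 kb, 92 reads) and none in WT cells. The WT islands over Rb1, E2f2 and E2f3 were thin, between 9.13 and 11.4 reads per kb, where the median over all genes with islands was 16.9 in the Setd5+/- list and 12.2 in the WT list.

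Among the G1 genes, Ccne1, the cyclin that activates CDK2, had 63.3% in Setd5+/- and 88.5% in WT cells, and Cdk4 had 66.3% in Setd5+/- and 87.6% in WT cells. Cdk4 was just inside the threshold at −21.3 points, and Mki67 was just outside it at −18.0 (80.3% in Setd5+/-, 98.3% in WT cells). Cdk2, the kinase of the G1/S transition, had 67.5% in Setd5+/- cells, in 1 island of 4.8 kb with 90 reads that also touched Pmel, and none in WT cells. Ccnd1 had 72.7% in Setd5+/- and 80.8% in WT cells, and Ccnd2 85.8% in Setd5+/- and 87.5% in WT cells. Cdc25a, which removes inhibitory phosphates from CDKs, had 88.7% in each.

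Of the MCM helicase subunits, Mcm4, Mcm5 and Mcm7 had the same coverage in both genotypes (95.6%, 90.9% and 100%). Mcm2 had 87.1% in Setd5+/- and 92.3% in WT cells, Mcm6 89.7% in Setd5+/- and 100% in WT cells, and Mcm3 89.0% in Setd5+/- and 79.8% in WT cells. Cdc6, which loads the MCM helicase, was the 1 replication gene lower by at least 20 points, with 31.4% in Setd5+/- and 85.6% in WT cells. Its Setd5+/- island of 28.8 kb with 401 reads ran in from the neighbour Wipf2 and ended in the first part of the gene, while the WT island of 14.4 kb with 172 reads lay on Cdc6 alone. Pcna, the sliding clamp of the replication fork, had 69.7% in Setd5+/- cells and none in WT cells, in 1 island of 15.2 kb with 224 reads shared with the neighbour Tmem230. Orc1, the largest subunit of the origin recognition complex, had 88.1% in Setd5+/- and 86.0% in WT cells.

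Among the mitotic genes, Aurkb had 47.4% in Setd5+/- cells (5.6 kb, 91 reads) and 100% in WT cells (8.0 kb, 113 reads). Mad2l1, the checkpoint protein that binds CDC20, had 59.6% in Setd5+/- cells (12.0 kb, 198 reads) and 100% in WT cells (15.2 kb, 163 reads). Ccnb1, the main mitotic cyclin, had 67.9% in Setd5+/- cells (7.2 kb, 144 reads) and 98.9% in WT cells (9.6 kb, 144 reads). At all 3 the island was shorter in Setd5+/- cells. The other 12 mitotic genes differed by less than 20 points. Ccna2, whose cyclin acts in S phase and G2, had 77.5% in Setd5+/- and 67.7% in WT cells, and Cdc25c 89.4% in Setd5+/- and 72.2% in WT cells. Aurka had 80.4% in Setd5+/- and 85.8% in WT cells, and Cdc25b 80.4% in each. Bub1 had 92.9% in Setd5+/- and 95.4% in WT cells, Bub1b, which encodes the checkpoint protein BUBR1, 95.9% in each, and Top2a 96.8% in Setd5+/- and 99.4% in WT cells.

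**Figure D2:**
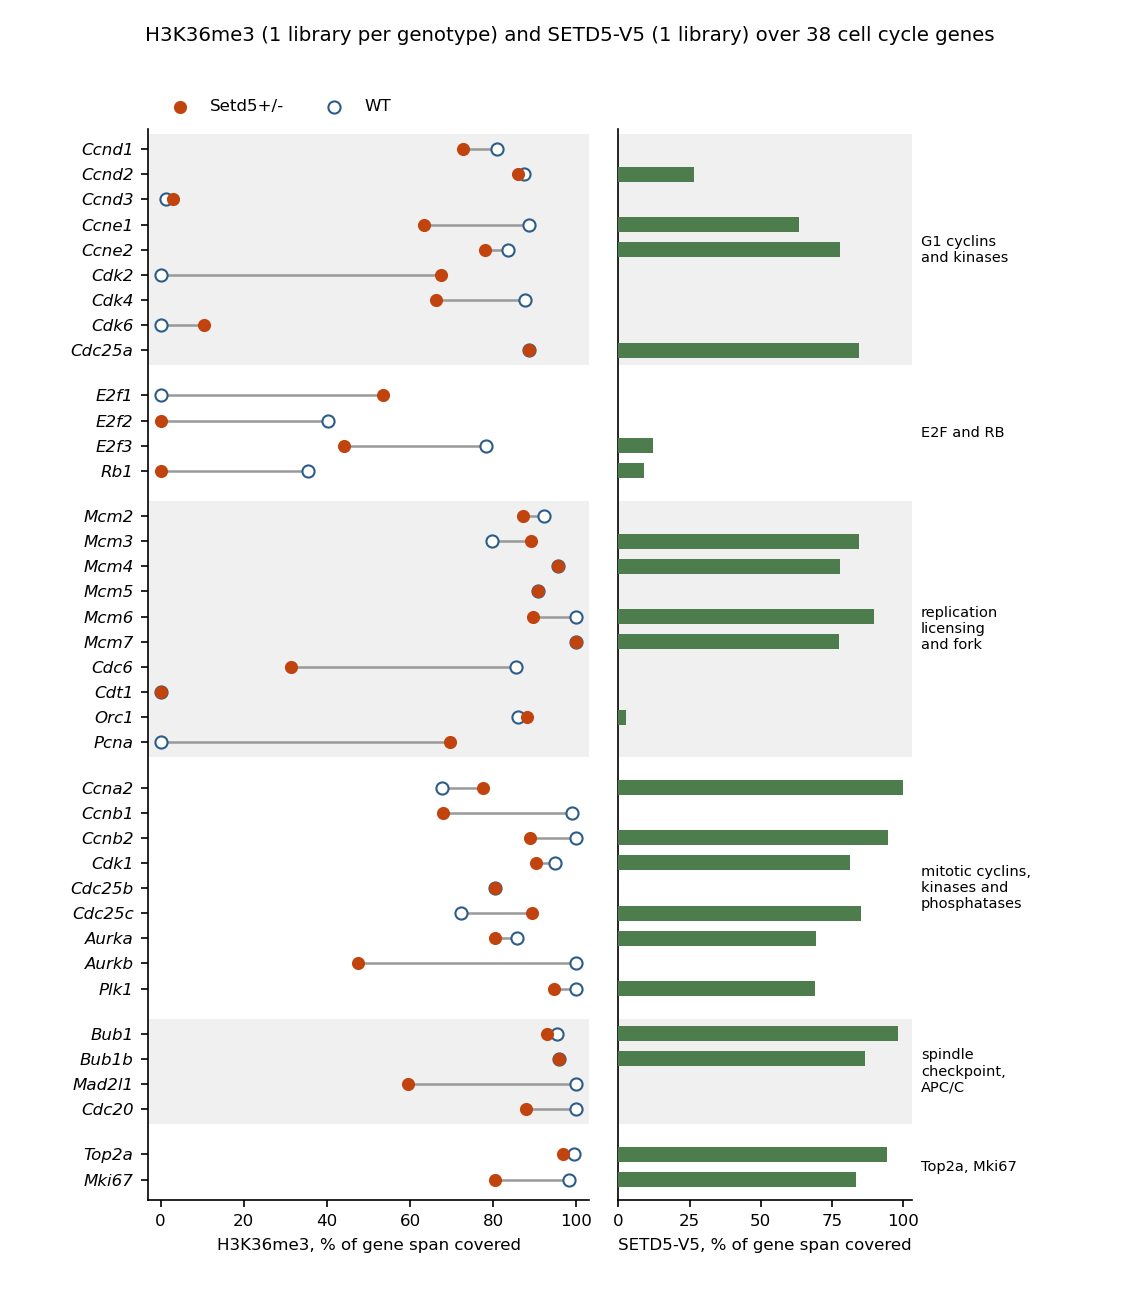
Left, percent of the gene span covered by H3K36me3 islands for each of the 38 genes, by role, with filled orange points for Setd5+/- and open blue points for WT (1 library each); right, percent covered by SETD5-V5 islands in WT-S5V5 cells (1 library). Most mitotic and MCM genes lie near the right edge in both genotypes, and E2f2, Rb1 and Cdc6 have the open point far to the right of the filled one.

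Each member was also set beside protein-coding genes of its own length class (10 classes) and WT coverage class (5 classes). The change was below the class median at 11 members, against 17.1% of all genes, and above it at 26, against 21.3%, with Cdt1 level. The share of all genes is low on both sides because most genes have no H3K36me3 and sit at the median of 0. The members furthest below were Cdc6 (−47.5 points against its class), E2f2 (−43.6), Rb1 (−35.9), Aurkb (−34.3) and E2f3 (−30.5). The median member stood 1.62 points above its class, and the median was 3.82 for G1/S and replication genes and 0.65 for mitotic genes. Against classes of length alone, 22 members were below and 9 above, so the side on which most members fell depended on matching for WT coverage.

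**Figure D3:**
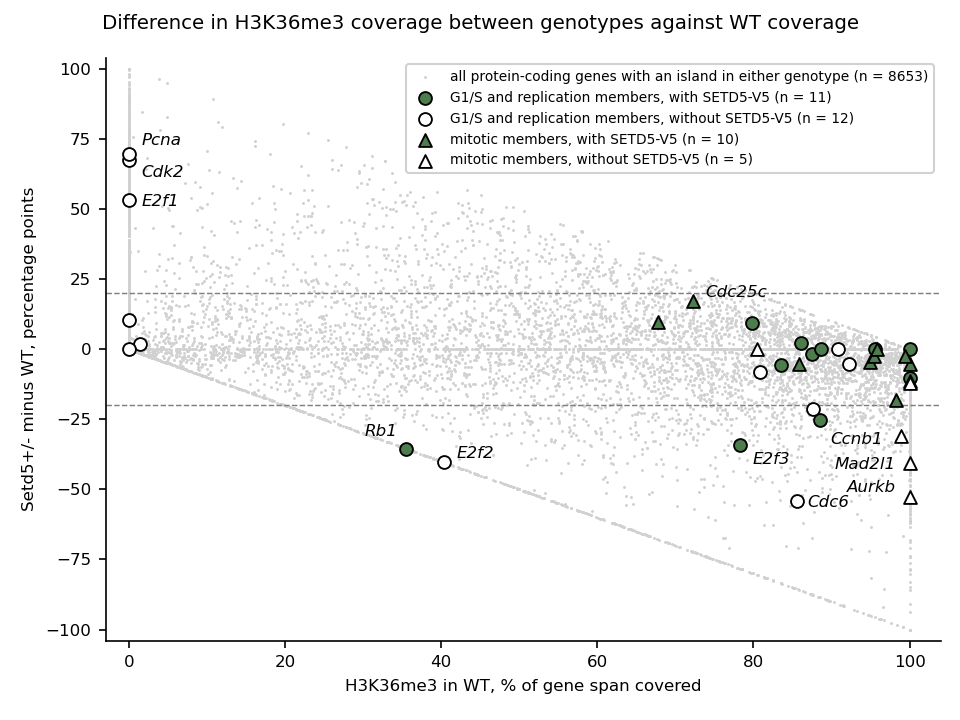
Difference in H3K36me3 coverage, Setd5+/- minus WT, in percentage points, against the percent covered in WT; grey points are protein-coding genes with an island in either genotype, circles are G1/S and replication members, triangles mitotic members, and filled symbols have a SETD5-V5 island over the span. Dashed lines mark 20 points either way; 9 members lie below the lower line and Pcna, Cdk2 and E2f1 above the upper one.

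To see where along the gene H3K36me3 differed, each span was cut into 3 equal segments. Among the 22 members with a RefSeq start, a span of at least 5 kb and WT H3K36me3 over at least 25%, the 5′ segment was covered over a mean of 55.7% in Setd5+/- and 76.7% in WT cells. The middle segment had 87.1% in Setd5+/- and 96.2% in WT cells, and the 3′ segment 88.9% in Setd5+/- and 97.0% in WT cells. Over 4873 protein-coding genes chosen the same way the 5′ segment had 39.7% in Setd5+/- and 47.1% in WT cells, and the 3′ segment 83.0% in Setd5+/- and 88.0% in WT cells. For the 11 mitotic genes the difference was in the 5′ segment (55.0% in Setd5+/-, 86.1% in WT cells), while the 3′ segment was covered fully in both. For the 11 G1/S and replication genes the 5′ segment had 56.5% in Setd5+/- and 67.3% in WT cells, and the 3′ segment 77.9% in Setd5+/- and 94.0% in WT cells. That 3′ difference came from E2f2 (none in Setd5+/-, 89.2% in WT cells), Cdc6 (none in Setd5+/-, 56.7% in WT cells) and E2f3 (56.7% in Setd5+/-, 100% in WT cells). The 3′ segment was covered fully in both genotypes at 7 of the 11, and Orc1 had 100% in Setd5+/- and 87.9% in WT cells. Choosing genes by WT coverage leaves out Cdk2 and E2f1, which had no H3K36me3 in WT cells. With at least 25% in either genotype, which makes 13 G1/S and replication genes, the 3′ segment had 78.5% in Setd5+/- and 79.5% in WT cells and the 5′ segment 49.5% in Setd5+/- and 57.0% in WT cells, while the mitotic genes were the same 11.

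The position of the 5′ edge of the H3K36me3 island relative to the start was compared in the 23 members with islands in both genotypes, a RefSeq start and WT coverage of at least 25%. The edge lay further into the gene in Setd5+/- cells at 14 of 23 members, against 51% of all such genes, and further upstream at 4, against 31.2%. Mitotic genes made up 10 of the 14 and none of the 4, out of 12; among 11 G1/S and replication genes it was 4 and 4. The median edge of the mitotic genes was 1.82 kb into the gene in Setd5+/- and 0.284 kb in WT cells. At Ccnb1 the edge was at 2.49 kb in Setd5+/- and 0.086 kb in WT cells, at Mki67 at 5.18 kb in Setd5+/- and 0.379 kb in WT cells, and at Mad2l1 at 2.38 kb in Setd5+/- cells and 1.62 kb upstream of the start in WT cells (−1.62 kb). At Ccnb2 the WT island of 56.8 kb began in the neighbour Rnf111 and crossed the start, whereas in Setd5+/- cells Ccnb2 had its own island of 12.8 kb with 253 reads and Rnf111 another. Mcm6 had the same arrangement with Dars, with a shared WT island of 87.2 kb and separate Setd5+/- islands of 32.8 and 54.4 kb. These edges move in steps of the 800 bp window named in the file headers, so a shift of 0.8 kb is 1 window.

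Counted at the start itself, H3K36me3 lay within 1 kb at 5 of 24 members in Setd5+/- and 13 of 24 in WT cells, against 13.7% and 32.4% of genes with WT H3K36me3 over at least 25%. It was there in WT only at 8, against 22.2%, and in Setd5+/- only at none, against 3.46%; within 5 kb of the start, 2 members had it in WT only. Of the 12 mitotic genes 3 had it in Setd5+/- and 8 in WT cells, and of the 12 G1/S and replication genes 2 had it in Setd5+/- and 5 in WT cells. Cdc6 differed at its far end, with the 5′ segment covered over 94.1% in Setd5+/- and 100% in WT cells and the 3′ segment over none in Setd5+/- and 56.7% in WT cells.

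**Figure D4:**
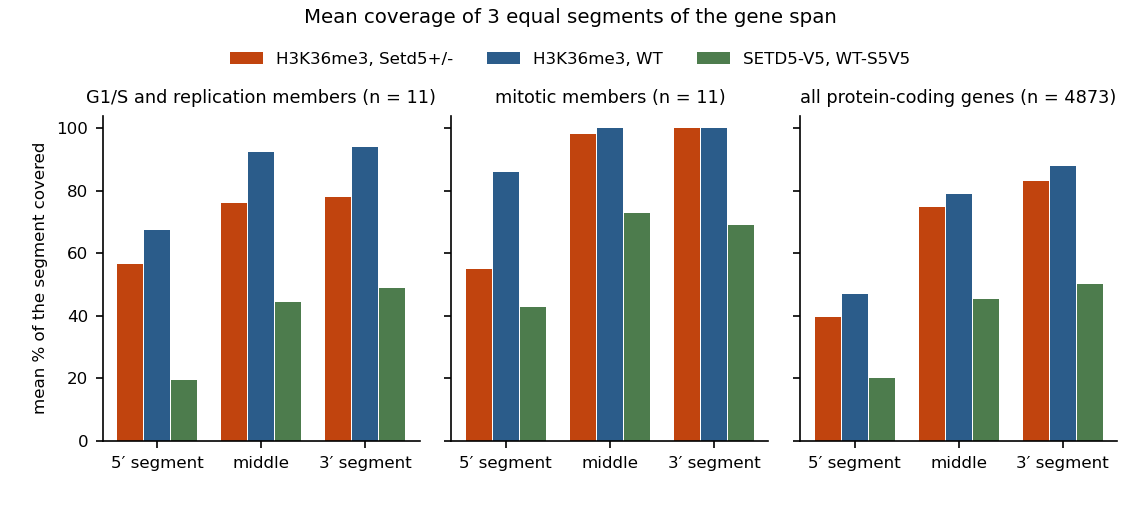
Mean percent of the 5′, middle and 3′ segment of the gene covered by H3K36me3 in Setd5+/- (orange) and WT (blue) and by SETD5-V5 (green), for G1/S and replication members, mitotic members and all protein-coding genes with a RefSeq start, a span of at least 5 kb and WT H3K36me3 over at least 25%. In mitotic members the 5′ segment stands at 55.0% in Setd5+/- and 86.1% in WT, and the 3′ segment at 100% in both.

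Within the islands, H3K36me3 density relative to other genes was much the same in both genotypes. The ratio is scaled to library reads and set relative to the median gene, so a change shared by most genes cannot show in it. Unscaled, the median over members was 19.4 reads per kb in Setd5+/- and 14.1 in WT cells. Over all genes it was 16.9 in Setd5+/- and 12.2 in WT cells. For the 31 members with islands in both, the log2 ratio of Setd5+/- over WT had a median of 0.00, and 15 lay below 0, against 45.2% of all genes. No member passed 0.5 in either direction, against 0.619% of all genes lower and 2.43% higher. Mcm3 and Mcm6 were highest, at 0.41 each (intervals 0.20 to 0.63 and 0.28 to 0.55), where genes of chromosome 1 had a median of 0.35. The ratio of Mcm6 sets a Setd5+/- island of 32.8 kb against a WT island of 87.2 kb shared with Dars. It therefore compares unlike stretches, as does that of Ccnb2 (12.8 kb in Setd5+/-, 56.8 kb shared with Rnf111 in WT cells). Ccnd1 was lowest at −0.37 (−0.71 to −0.04), and the intervals of 27 of 31 members included 0.

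H3K36me2 was over 2 members. Mcm3 was covered over 80.2% in Setd5+/- cells, by an island of 82.4 kb with 1662 reads, and had none in WT cells, and it was the 1 member higher by at least 20 points, against 3.03% of all genes. It lies on chromosome 1, whose greater H3K36me2 coverage in Setd5+/- cells is given above. Rb1 had none in Setd5+/- cells and 11.4% in WT cells, in an island of 15.2 kb with 233 reads, so both H3K36 marks over Rb1 were in the WT lists only. No member was lower by 20 points, against 0.891% of all genes.

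SETD5-V5 islands lay over 21 of 38 members, against 22.3% of all genes. All 21 are among the 32 members with WT H3K36me3 over at least 25%, and 63.2% of all such genes had SETD5-V5. SETD5-V5 covered at least 25% of 18 members, against 17.4% of all genes and 55% of those with H3K36me3. It was over 11 of 23 G1/S and replication genes and 10 of 15 mitotic genes, with a median covered percent of 0 in the first group and 81.4 in the second. Without chromosomes 1 and 4, which hold Mcm3, Mcm6, Ccne2, E2f2 and Orc1, it was over 7 of the G1/S and replication genes that remain. The highest were Ccna2 at 100%, Bub1 at 97.9% and Ccnb2 at 94.6%, and the lowest above 0 were Orc1 at 2.72%, Rb1 at 9.02% and E2f3 at 12.1%. The longest island that touched a member, 78.4 kb with 1490 reads, ran over Tut4 and Prpf38a and covered 2.72% of Orc1. Ccne2 shared an island of 40.0 kb with 822 reads with Ints8. Of the islands that touched 1 gene alone, the longest were on Bub1b (37.6 kb, 775 reads), Bub1 (36.8 kb, 724 reads) and Top2a (34.4 kb, 787 reads).

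The SETD5-V5 islands over members ran inside H3K36me3. Of 308 kb of SETD5-V5 over member spans, 97.8% was inside WT H3K36me3 islands. WT H3K36me3 covered a mean of 87.3% of the span of the 21 members with SETD5-V5. The same share over all genes was not computed, so the overlap cannot be called particular to the members. SETD5-V5 reads per kb had a median of 19.6 over members and 17.9 over all genes with SETD5-V5. SETD5-V5 was within 1 kb of the start at 8 members, against 4.97% of all genes. These were Ccnd2, Ccne2, Mcm4, Mcm7, Ccna2, Ccnb2, Cdc25c and Bub1. For Ccnd2, Ccne2, Mcm4, Ccna2 and Cdc25c either annotated end served as the start. At Ccnd2, Ccne2, Mcm4 and Cdc25c the island was within 1 kb only of the end without H3K4me3. Their calls therefore do not place SETD5-V5 at the end with H3K4me3. The Ccna2 island ran over both ends. In the 11 mitotic genes cut into segments, the mean covered by SETD5-V5 was 42.9% of the 5′ segment and 68.9% of the 3′ segment.

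Members without SETD5-V5 held most of the lower H3K36me3, as did genes without it over all genes (927 of 1347). Of the 21 members with SETD5-V5, 3 were lower by at least 20 points (Ccne1, E2f3 and Rb1), against 10.1% of all genes with SETD5-V5 and WT H3K36me3 over at least 20%. Of the 11 members with such H3K36me3 and no SETD5-V5, 6 were lower (Cdc6, Aurkb, Mad2l1, E2f2, Ccnb1 and Cdk4), against 37% of all such genes. Where WT H3K36me3 covered at least 25%, the median change was −2.56 points over 21 members with SETD5-V5 and −21.3 over 11 without it, against −0.82 and −10.3 over all such genes. Over all 17 members without SETD5-V5 the median was −5.23 points, and over all genes it was 0 both with and without SETD5-V5. The 3 members higher by at least 20 points, Cdk2, E2f1 and Pcna, had no SETD5-V5 either. Members without SETD5-V5 had a median length of 9.90 kb and those with it 18.4 kb, and the part of length in this difference was not tested.

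A list of 106 other cell cycle genes gave similar start marks. H3K4me3 was at the start of 105 in both genotypes, H3K27ac at 81 in Setd5+/- and 89 in WT cells, H3K4me1 at 29 in Setd5+/- and 82 in WT cells, and H3K27me3 at 1 in Setd5+/- and 6 in WT cells. H3K36me3 covered at least 25% of 92 in Setd5+/- and 93 in WT cells, with medians of 86.1% in Setd5+/- and 84.8% in WT cells. It was lower by at least 20 points at 15 and higher at 11. The largest differences were at Rpa3, a subunit of the single-strand binding protein RPA, with none in Setd5+/- and 100% in WT cells, and at Cdca5, the cohesin protector sororin, with 100% in Setd5+/- and none in WT cells. SETD5-V5 was over 76 of the 106.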

How the data were processed

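The work rests on the island lists of 13 ChIP-seq libraries of a series of 16 samples; the 3 inputs are not used here. The submitters' processing notes name FastQC, Bowtie2 2.2.3 with build GRCm38 (mm10), and SICER 1.1, which calls broad enriched islands. For the lists of both H3K36 marks and of SETD5-V5, the settings per the file headers were windows of 800 bp, gaps of up to 2400 bp and an FDR of 0.01; 8 lists carry no settings. The whole number beside each island was taken as the authors' deposited counts of reads per island, which is read from the values since no header names it. How counts were normalized, how many reads each library had in all and whether inputs served as controls is not given in the sources used here, so depth outside islands is unknown.

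Each island ends at its deposited last base. Computations used Python 3.11.15, numpy 2.4.6, pandas 2.3.3, scipy 1.17.1 and matplotlib 3.10.9. Spans came from RefSeq for 21887 protein-coding genes, and strands and starts from its promoter windows for 17492 of them and 30 of 38 members. Covered percent is the share of a span under islands, and a difference of 20 points was counted. Density ratios carry 95% exact binomial intervals that cover counting error alone, PCR duplicates being possible without molecular identifiers. With 1 library per group no test was made, and counts are set beside those over all genes, because genes are not replicates. The coverage arithmetic was checked on simulated islands with known ends over 7958 genes. All 154 simulated losses of at least 20 points among 200 changed genes were recovered with 0 false calls. The simulation had no read sampling, island calling or islands shared with neighbours, so it gives no error rate for the differences between libraries.

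The members, gene lists and comparisons were chosen with earlier results of these data known. Named first were members past 20 points or with a start mark in 1 genotype only, the 3 highest and 3 lowest in SETD5-V5 coverage above 0, and the first 2 of each role; those also named were chosen after their values were seen. Of other lists, at most 2 genes are named.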

Additional observations from a re-analysis of the deposited data

How the results depend on the processing

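Of 45 planned and 11 later alternatives, 111 values were obtained, of which 84 stayed within 1.5 times the main value and 27 moved. The 9 members lower in H3K36me3 became 2 at a threshold of 50 points and 5 when spans took in 5 kb flanks. The 3 higher members became 5 at 10 points and 1 among the 23 members whose islands reach no other gene, an alternative chosen after seeing the data. The 1 member higher in H3K36me2 became 0 without chromosomes 1, 4, 15, X and Y, since Mcm3 lies on chromosome 1. There SETD5-V5 over 11 G1/S and replication genes became 7, out of fewer such genes. H3K27ac at the start in both genotypes went to 15 members, and H3K4me1 in WT only to 5, when an island had to lie over the start base, and H3K36me3 at the start in WT only went to 2 within 5 kb. With genes chosen by coverage in either genotype, an alternative chosen after seeing the data, the 3′ difference of G1/S and replication genes was −1.06 points in place of −16.1. H3K27me3 at the start of Cdk6 in WT only became 0 over the start base, within 5 kb, or at either annotated end. Classes of length alone gave 22 members below and 9 above the class median, in place of 11 and 26. Except where the construction shows it (fewer members, a narrower or wider window), the cause was not tested. Without centring, the median density ratio of members shifts by −0.07 for H3K36me3 and −0.09 for H3K4me3. No paired analysis was possible because each group has 1 library and no result comes from a test, and for the same reason no replicate could be left out.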
